A study of Mus musculus with 6 samples.

Results

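Beta-adrenergic signalling and the genes that switch it off were examined in heart ventricles of dystrophic mice fed finerenone, a non-steroidal antagonist of the mineralocorticoid receptor. The set holds 9 genes: Adrb1, Gnas, Adcy5, Adcy6, Grk5, Grk6, Arrb1, Rgs2 and Akap12. A gene was taken from the deposited table where the platform annotation gives its symbol, and no other symbol, to a transcript cluster (the unit that the array summarises). In this way 8 of the 9 were found among 30142 named genes, each with 1 cluster, and Adrb1, the main beta receptor of heart muscle, was not named and is not analysed here. The genes were chosen partly on measured values, the finerenone minus untreated differences of these same arrays and, for the cluster, the mean signal, so those differences are given as a description, without a test.

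The arrays hold ventricular RNA from 6 male mice on the C57BL/10 background, all 20 weeks old, with 1 array per mouse. Every mouse was dystrophin-deficient (mdx) and utrophin haplo-insufficient (utrn+/-), a genotype that the labels call Het, so the controls carry the disease too and no healthy heart is in the comparison. The finerenone group (3 mice) was fed finerenone at 100 ppm in the diet starting at weaning (4 weeks old), and the untreated group (3 mice) received the chow without it. The labels call the mice biological replicates, assigned at random. Values are log2 signals, so a difference of 1 is a doubling, and with 3 arrays in each group the number of arrays limits the precision.

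In heart muscle, noradrenaline from sympathetic nerves and circulating adrenaline bind beta receptors, which activate the stimulatory G protein. Its alpha subunit turns on adenylyl cyclase, and the cyclic AMP that results activates protein kinase A, which raises the rate and force of the beat. The signal is damped by receptor kinases that phosphorylate the active receptor, and by arrestins that then bind it and uncouple it from the G protein. RGS proteins shorten the active state of some G proteins, and Rgs2 acts on Gq and also inhibits some adenylyl cyclases.

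Of the 8 measured genes, the damping and scaffold genes Rgs2, Akap12 and Grk5 stood lowest in treated relative to untreated hearts, with log2 differences of -0.67, -0.61 and -0.50. Adcy5 was lower by a smaller amount (-0.25), and Gnas, Arrb1, Adcy6 and Grk6 lay between -0.17 and 0.05. In 4 of the 8 genes every treated array was below every untreated array (Rgs2, Akap12, Grk5 and Adcy5), and in 1 gene, Gnas, every treated array was above, which did not hold after renormalizing the arrays. Over all 30142 named genes the groups were apart in this way with treated hearts lower for 4.18% and with treated hearts higher for 8.17%. In a limma fit across all named genes, adjusted by the Benjamini-Hochberg method, 0 of 30142 genes (0%) had an adjusted p below 0.05, the smallest being 0.597, and 2353 (7.81%) had an unadjusted p below 0.05. The median log2 difference of the 8 genes was -0.21, beside 0.03 over all named genes. The 95th percentile of the negative control probe sets was 8.35 to 8.73 across arrays. Akap12, Adcy5, Gnas, Arrb1 and Grk6 lay below that range on every array, and Grk5, Rgs2 and Adcy6 lay above it. In ventricular tissue, fewer cells of a type and less RNA per cell cannot be told apart.

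**Figure D1:**
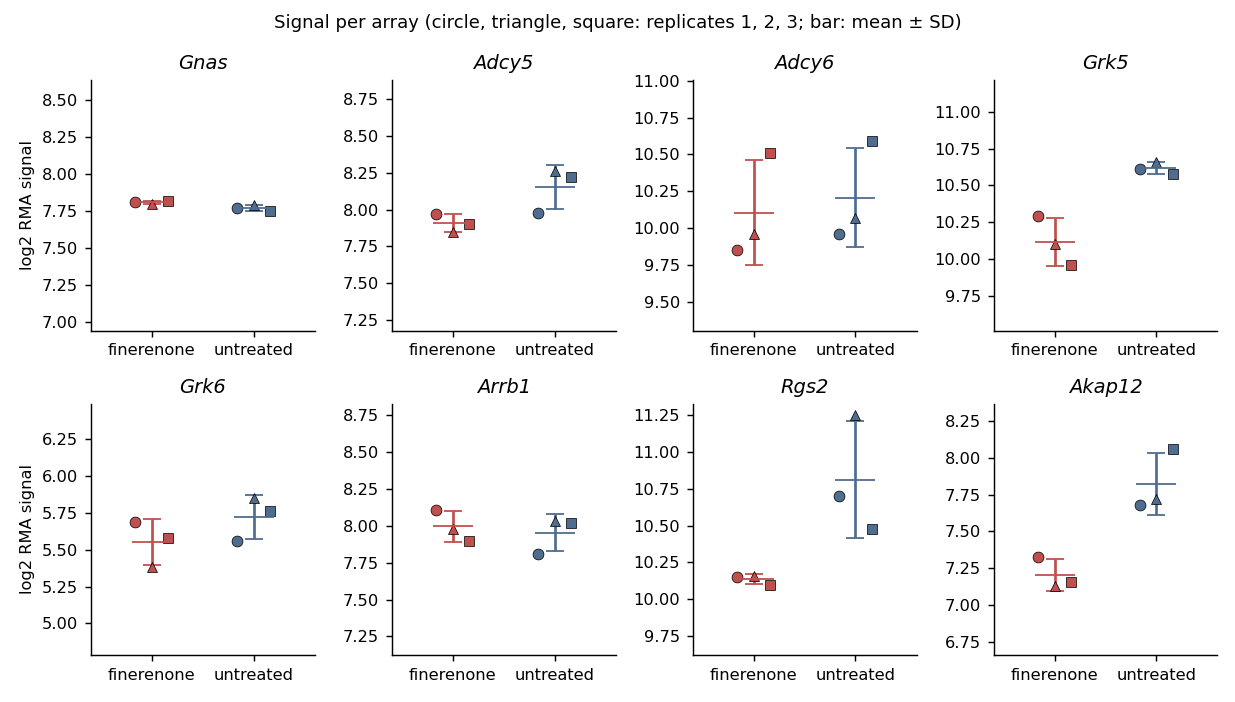
Log2 RMA signal of the 8 measured genes on each array, with finerenone (red) left of untreated (blue); short bars give the mean ± SD of 3 arrays, and all panels span the same number of log2 units around the gene's own mean. Grk5, Rgs2 and Akap12 show a gap between the groups of 0.29 to 0.35, the gap in Adcy5 and Gnas is 0.01, and the groups overlap in Adcy6, Grk6 and Arrb1.

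Gnas encodes the alpha subunit of the stimulatory G protein, from a complex imprinted locus with several promoters (chromosome 2, 174284320 to 174346744, GRCm38.p6). Its signal was 7.81, 7.80 and 7.82 in treated hearts, against 7.77, 7.79 and 7.75 in untreated hearts. This was the steadiest gene of the set, with a spread of 0.07 over the 6 arrays. The treated arrays were the higher ones by a gap of 0.01, and the log2 difference was 0.04 ± 0.07 (SE of the limma fit), with a 95% interval from -0.12 to 0.21. It was 0.01 after cyclic loess and close to 0 after quantile normalization, and the groups overlapped after either of these and after median centring. The promoter table lists 4 starts for this locus and the array gave 1 cluster under the symbol, so transcripts from the separate promoters could not be told apart.

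Adcy5 and Adcy6 encode the adenylyl cyclases that predominate in cardiac muscle cells. Adcy5 (chromosome 16, 35154494 to 35305743) measured 7.97, 7.85 and 7.90 in treated hearts, against 7.98, 8.26 and 8.22 in untreated hearts. The groups did not overlap, but only by 0.01, since the signal of untreated replicate 1 lay beside the treated values. The log2 difference was -0.25 ± 0.10 (SE), which is a signal 15.7% lower in treated hearts. Adcy6 (chromosome 15, 98589978 to 98610287) measured 9.85, 9.96 and 10.51 in treated hearts, against 9.96, 10.07 and 10.59 in untreated hearts. Here the groups overlapped through most of their range, and the highest array of each group was its replicate 3. The difference of -0.10 ± 0.23 (SE) had a 95% interval from -0.66 to 0.46, wide enough to hold a change of the size seen in Adcy5 in either direction.

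The bases before the listed start of Adcy5 are shown because it is 1 of the 3 genes that were lower in treated hearts with no overlap of the groups and that have a promoter in the RefSeq table (GRCm38.p6). That table's start lies downstream of the first base of the gene given above, so for Adcy5, and for most of the Grk5 window, the bases lie inside the annotated gene. Capitals mark matches to GGGCGG, the GC box bound by Sp1-type factors, read on either strand.
Adcy5, chr16:35154614-35154863, plus strand: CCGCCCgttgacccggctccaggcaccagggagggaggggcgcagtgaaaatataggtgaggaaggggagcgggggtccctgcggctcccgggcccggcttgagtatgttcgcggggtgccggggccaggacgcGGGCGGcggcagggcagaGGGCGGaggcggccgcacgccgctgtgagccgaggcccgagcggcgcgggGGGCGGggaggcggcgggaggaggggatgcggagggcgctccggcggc
It holds 4 GC boxes, and 78.0% of its 250 bases are G or C, beside a median of 52.4% over 32851 windows of the same length.

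Grk5 and Grk6 are receptor kinases of the same subfamily, bound to the membrane without help from G protein subunits, and Grk5 is one of the main receptor kinases of the heart. Grk5 (chromosome 19, 60889560 to 61095968) measured 10.29, 10.10 and 9.96 in treated hearts, against 10.61, 10.66 and 10.58 in untreated hearts. The untreated arrays lay within 0.08 of each other and the treated arrays within 0.33, with a gap of 0.29 between the groups. Treated hearts averaged 10.12 ± 0.17 and untreated hearts 10.62 ± 0.04 (SD, n = 3 each). This is a log2 difference of -0.50 ± 0.10 (SE), or a signal 29.2% lower. A difference this low or lower was found in 0.786% of all named genes. Those genes include 16139 with a mean signal below the median negative control, and the rank was not taken among genes as bright as Grk5. The rank describes and does not test, since the set was chosen partly on these differences.

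Grk6 (chromosome 13, 55445072 to 55460927) measured 5.69, 5.38 and 5.58 in treated hearts, against 5.56, 5.85 and 5.76 in untreated hearts. It was the dimmest gene of the set, on average 0.45 above the median negative control, and its groups overlapped. Its difference was -0.17 ± 0.12 (SE), with a 95% interval from -0.46 to 0.11. Taken within each array, the log2 signal of Grk5 minus that of Grk6 was on average 4.57 ± 0.17 for treated hearts and 4.89 ± 0.14 for untreated ones (SD, n = 3 each), which is a shift of -0.33. Grk3, another receptor kinase, measured 5.98, 5.91 and 5.86 in treated hearts, against 5.96, 6.08 and 6.11 in untreated hearts, a difference of -0.13 ± 0.08 (SE; limma adjusted p = 0.745).

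The Grk5 window follows, for the same reason, with the marking used above.
Grk5, chr19:60889499-60889748, plus strand: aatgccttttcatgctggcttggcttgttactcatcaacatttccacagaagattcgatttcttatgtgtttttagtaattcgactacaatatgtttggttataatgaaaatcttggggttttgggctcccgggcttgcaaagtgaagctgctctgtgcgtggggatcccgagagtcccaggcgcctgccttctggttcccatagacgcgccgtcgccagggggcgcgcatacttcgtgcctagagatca
No capitals appear, because the GC box, the TATA box (TATAAA) and the motifs described under Rgs2 were not found in these 250 bases. Their G and C content of 49.6% is below that of the Adcy5 window.

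Arrb1 encodes beta-arrestin 1, which binds phosphorylated receptors (chromosome 7, 99535147 to 99606772). It measured 8.11, 7.98 and 7.90 in treated hearts, against 7.81, 8.03 and 8.02 in untreated hearts. The groups overlapped. The difference was 0.05 ± 0.10 (SE), with a 95% interval from -0.20 to 0.29. The partner gene Arrb2 shares its cluster's annotation with a microRNA and was not used here.

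Rgs2 encodes a regulator of G protein signalling that shortens signals through Gq and also inhibits some adenylyl cyclases (chromosome 1, 143999338 to 144004149). It measured 10.15, 10.16 and 10.10 in treated hearts, against 10.70, 11.25 and 10.48 in untreated hearts. The treated arrays were almost equal, within 0.06, while the untreated arrays spread over 0.77, with untreated replicate 2 the highest. Treated hearts averaged 10.14 ± 0.03 and untreated hearts 10.81 ± 0.40 (SD, n = 3 each). The log2 difference of -0.67 ± 0.19 (SE), a signal 37.1% lower, was the widest of the set. It was -0.45 without untreated replicate 2 and -0.83 without untreated replicate 3. Of all named genes, dim ones included, 0.305% had a difference this low or lower, again a rank without a test.

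The Rgs2 window was searched on both strands for TGACGTCA, the cAMP response element, for its core TGACG, for TGTTCT, an arm of the steroid receptor element that mineralocorticoid and glucocorticoid receptors share, and for that whole element (the arm preceded, after any 3 bases, by its reverse complement). Capitals mark the core and the GC box, on either strand.
Rgs2, chr1:144004150-144004399, minus strand: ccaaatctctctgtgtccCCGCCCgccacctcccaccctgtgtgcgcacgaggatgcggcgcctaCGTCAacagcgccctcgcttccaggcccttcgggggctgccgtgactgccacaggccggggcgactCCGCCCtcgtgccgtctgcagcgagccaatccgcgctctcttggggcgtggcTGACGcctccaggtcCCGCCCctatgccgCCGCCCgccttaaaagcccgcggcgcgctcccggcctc
It holds 2 matches to the core TGACG, at 185 and 67 bases before the start, and 4 GC boxes. Of its bases 72.4% are G or C, and C is followed by G at 30 places, beside medians of 52.4% and 6 over all windows. Both motifs contain CG, and the shares that follow were not matched for base content. The core, which the whole cAMP element contains, was found in 17.8% of the 32851 windows, the whole element in 1.55%, the GC box in 32.7% and the steroid arm TGTTCT in 16.1%. The whole steroid element was in 3 of the windows. Neither whole element was found in any window of the measured genes. The steroid arm was absent from the Rgs2, Grk5, Adcy5 and Grk6 windows but present in the Gnas windows numbered 1 and 3. The core was also in the Gnas windows numbered 1, 3 and 4, so it was not particular to Rgs2. A match is a run of letters and does not show binding. Of the 8 measured genes 5 had a window in the table, and Akap12, Arrb1 and Adcy6 had none.

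Akap12 (gravin) encodes a scaffold that anchors protein kinase A near the membrane and has a part in the recovery of receptors after desensitisation (chromosome 10, 4266329 to 4359471). It measured 7.33, 7.13 and 7.16 in treated hearts, against 7.68, 7.72 and 8.06 in untreated hearts. All treated arrays lay below all untreated arrays, with a gap of 0.35, the widest in the set, and untreated replicate 3 was the highest. Treated hearts averaged 7.21 ± 0.11 and untreated hearts 7.82 ± 0.21 (SD, n = 3 each). The groups differed on the log2 scale by -0.61 ± 0.13 (SE), or a signal 34.4% lower. Without untreated replicate 3 the difference was -0.49.

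With each array left out in turn, Grk6 stayed below 0. The signs of Rgs2, Akap12, Grk5, Adcy5 and Gnas could not turn, because their groups do not overlap, so only the size of their differences could change. Grk5 ran from -0.59 to -0.42, Akap12 from -0.68 to -0.49, Rgs2 from -0.83 to -0.45 and Adcy5 from -0.33 to -0.19. Grk6 was at -0.09 without finerenone replicate 2 and at -0.11 without untreated replicate 2. Adcy6 ran from -0.30 without finerenone replicate 3 to 0.09 without untreated replicate 3, and was at -0.22 without untreated replicate 1, -0.17 without untreated replicate 2, -0.03 without finerenone replicate 2 and 0.03 without finerenone replicate 1. It was at -0.17 after cyclic loess, -0.18 after quantile normalization and -0.19 with array weights. The sign also turned for Arrb1 (-0.03 without untreated replicate 1 and -0.01 without finerenone replicate 1), which reached 0.10 without finerenone replicate 3.

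**Figure D2:**
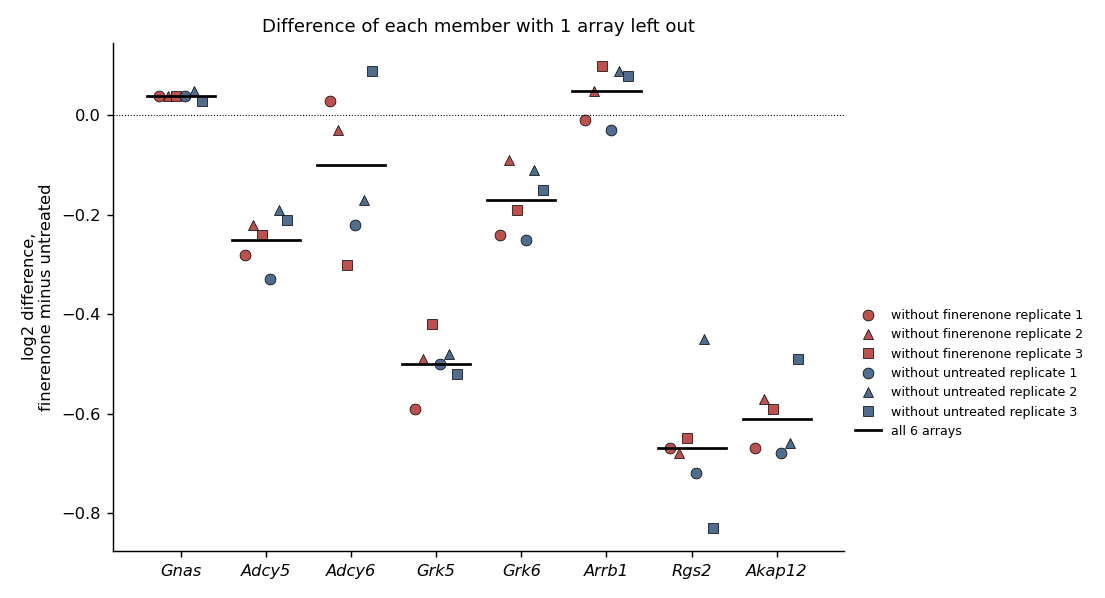
Log2 difference, finerenone minus untreated, of each measured gene with 1 array left out (symbols) and with all 6 arrays (line). Adcy6 and Arrb1 cross 0. Grk5, Rgs2 and Akap12 stay at or below -0.42, and their sign could not turn, since their groups do not overlap.

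The rest of the pathway was read from 10 lists by role, which together hold 105 genes other than these 9. Of them 90 were measured, 10 were not named and 5 shared a cluster with another symbol. In limma 0 of the 90 passed at an adjusted p below 0.05 over all named genes, in either direction. An unadjusted p below 0.05 was found for 7 (7.78%, beside 7.81% of all named genes), 6 with higher and 1 with lower signal in treated hearts. All named genes leaned the same way, with 1715 higher and 638 lower at that threshold. The median log2 difference of the 90 genes was -0.03. The groups were apart with treated hearts lower for 2 of the 90 (2.22%, beside 4.18% of all named genes), Akap6 and Adcy3, and with treated hearts higher for 6 (6.67%, beside 8.17%). The counts of higher and lower genes given for each list stand beside 58.2% of all named genes that were higher and 41.8% that were lower.

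**Figure D3:**
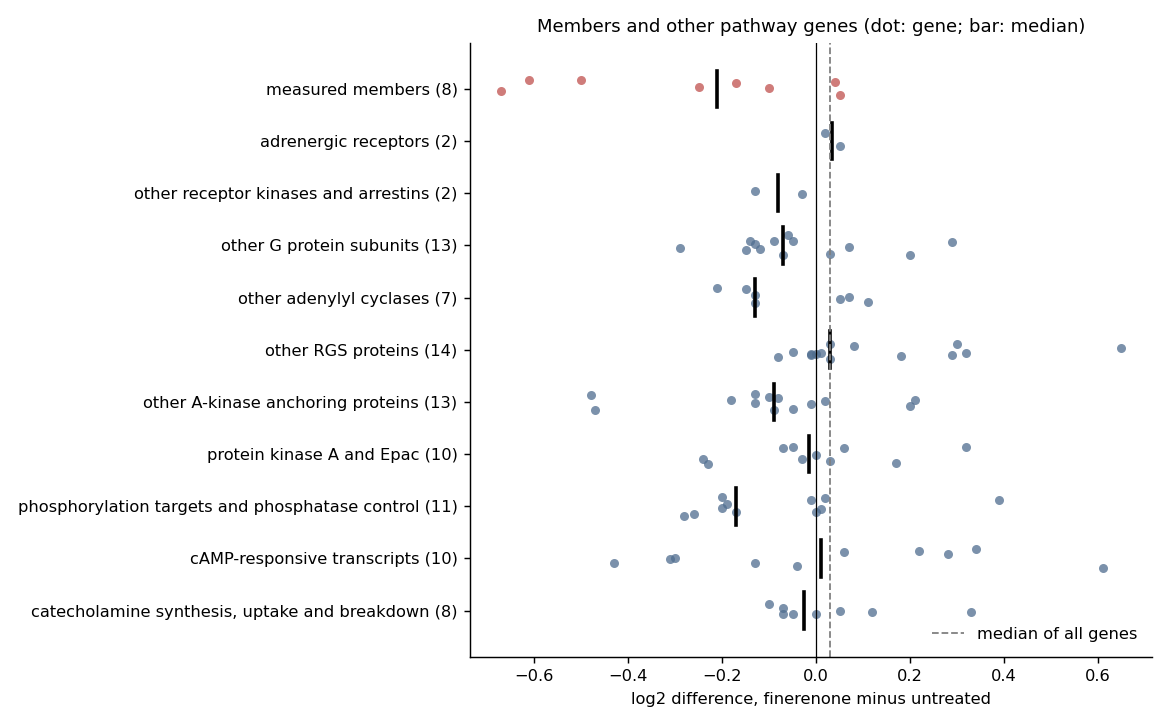
Log2 difference of the 8 measured genes (red) and of 90 other pathway genes by role (blue), with the median of each list as a black bar and the median of all named genes as a dashed line. The 3 lowest points of the plot are Rgs2, Akap12 and Grk5, and the pathway lists scatter on both sides of 0.

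Among receptors and their upstream ligand supply, few genes gave information. Of 8 adrenergic receptor genes listed, only Adra1b (0.05 ± 0.10 SE) and Adra2c (0.02 ± 0.16) were measured, neither of them a beta receptor (limma adjusted p = 0.932 and 0.994). Both are dim, and Adra2c lay below the median of the negative controls. Of 8 genes measured for catecholamine synthesis, uptake and breakdown, Maoa, a monoamine oxidase that degrades noradrenaline, had a mean of 6.91 ± 0.23 for treated hearts and 6.58 ± 0.08 for untreated ones (SD, n = 3 each), so it differed by 0.33 (limma adjusted p = 0.623), and its groups overlapped. Dbh, which makes noradrenaline, was below the negative controls at 4.31 in treated and 4.19 in untreated hearts (limma adjusted p = 0.806), a difference of 0.12 that was 0.05 without untreated replicate 3.

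For the G proteins, 4 of 13 measured subunits were higher and 9 lower. The gamma subunits Gng11 and Gng2 were the most separated. Gng11 measured 8.44, 8.46 and 8.32 in treated hearts, against 8.04, 8.28 and 8.04 in untreated hearts, a difference of 0.29 ± 0.10 (SE; limma adjusted p = 0.607). Gng2 differed by 0.20 ± 0.08 (limma adjusted p = 0.617). The groups did not overlap for either gene. Of the 7 other cyclases 4 were lower and 3 higher (median -0.13), with Adcy3 at -0.13 ± 0.07 and Adcy8 at -0.13 ± 0.09 (limma adjusted p = 0.714 and 0.776). Adcy8, below the negative controls, differed by -0.08 without untreated replicate 2 and -0.20 without untreated replicate 3, and Adcy3 was near them, at 5.22 in treated and 5.36 in untreated hearts.

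The relatives of Rgs2 and Akap12 did not all lie on the same side as those genes. Among 14 other RGS genes the signal of 9 was higher and of 5 lower (median 0.03), and Rgs18, a family member of blood cells, differed by 0.65 ± 0.29 (SE) and Rgs10 by 0.30 ± 0.14 (limma adjusted p = 0.653 and 0.667). Rgs18 was at 0.41 without finerenone replicate 2 and 0.98 without finerenone replicate 3, and Rgs10 at 0.19 without finerenone replicate 1. Of 13 other A-kinase anchoring genes 10 were lower, with a median of -0.09. Akap6 (mAKAP), which tethers protein kinase A at the nuclear envelope of cardiac muscle cells, measured 11.78, 11.33 and 12.00 in treated hearts, against 12.13, 12.10 and 12.33 in untreated hearts. Those groups did not overlap, and the difference was -0.48 ± 0.18 (limma adjusted p = 0.61), or -0.30 without finerenone replicate 2. Akap7, whose long form binds phospholamban, was at 0.20 ± 0.10 (limma adjusted p = 0.699), or 0.13 without finerenone replicate 2.

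Downstream, the lists held changes of both signs. In the list of protein kinase A and Epac genes 5 were lower and 5 higher, with Pkig, an inhibitor of protein kinase A, at 0.32 ± 0.12 (SE) and Rapgef3 (Epac1) at -0.23 ± 0.12 (limma adjusted p = 0.62 and 0.705). Of 11 genes for proteins phosphorylated on beta stimulation and their phosphatases 7 were lower, with a median of -0.17, among them Lipe (hormone-sensitive lipase) at -0.19 ± 0.10, while Ppp1ca, a catalytic subunit of protein phosphatase 1, was at 0.39 ± 0.22 (limma adjusted p = 0.705 and 0.724). Ppp1ca was at 0.17 without untreated replicate 1, 0.15 after quantile normalization and 0.25 after cyclic loess. Pkig was at 0.21 under each of these 3 settings, and Rapgef3 at -0.11 without untreated replicate 3. The transcripts known to respond to cyclic AMP were split evenly, 5 higher and 5 lower. Crem, a cyclic AMP-responsive transcription factor, measured 6.72, 6.49 and 6.54 in treated hearts, against 6.25, 6.32 and 6.34 in untreated hearts, a difference of 0.28 ± 0.09 (limma adjusted p = 0.597). Nr4a3, an orphan nuclear receptor, measured 6.98, 6.75 and 7.32 in treated hearts, against 6.09, 6.72 and 6.40 in untreated hearts, a difference of 0.61 ± 0.20 (limma adjusted p = 0.6). For both genes every treated array was above every untreated array.

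The genes with profiles closest to the 3 lowest genes were sought among 8697 genes with a mean log2 signal of at least 6, by the root mean square distance over the 6 arrays after centring each gene. For Grk5 these were Actg-ps1 (distance 0.044), Ankrd50 (0.051) and Srsf5 (0.075). For Akap12 they were Cmya5 (0.103), Cdc42bpb (0.104) and Iqsec1 (0.11), and for Rgs2 Eif5al3-ps (0.12), Eif5a (0.155) and Zc3h6 (0.165). Actg-ps1, Eif5al3-ps and Eif5a are uncertain, since a pseudogene and its parent can share probe signal. All 9 lay lower in treated hearts, by log2 differences from -0.57 (Eif5al3-ps) to -0.41 (Cdc42bpb and Iqsec1), as a search for profiles of lower genes must give.

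The tissue label was checked against markers. Of 8 cardiomyocyte genes 7 were measured, with mean signals from 12.48 to 19.93, and their mean per array lay between 16.63 and 16.89 in treated and between 16.70 and 16.94 in untreated hearts. In treated hearts 4 of these were higher and 3 lower. Skeletal muscle markers were also split, 3 higher and 4 lower, at 8.15 to 8.58 in treated and 8.14 to 8.36 in untreated hearts. Endothelial markers were lower for 8 of 8 genes, with a mean per array of 11.88 to 12.06 in treated and 12.02 to 12.82 in untreated hearts. Smooth muscle and pericyte markers were lower for 7 of 8 genes, at 8.90 to 9.15 in treated and 9.03 to 9.48 in untreated hearts. Untreated replicate 1 was the highest array in both lists. Its endothelial mean was 12.819, against 12.016 and 12.355 in untreated replicates 2 and 3. Its smooth muscle and pericyte mean was 9.477, against 9.033 and 9.193. Fibroblast markers were higher for 5 of 6 measured genes (11.21 to 11.63 in treated, 11.08 to 11.58 in untreated hearts) and macrophage markers for 7 of 7 (9.45 to 9.97 in treated, 9.18 to 9.67 in untreated hearts). Schwann cell markers were higher for 4 of 4, at 5.45 to 5.47 in treated and 5.20 to 5.37 in untreated hearts, and 3 of the 4 were below the negative controls. The part of these shifts in the differences of Rgs2, Akap12 and Grk5 was not tested. All 6 measured markers of sympathetic nerve were below the median of the negative controls, so these arrays say little about the nerve supply.

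**Figure D4:**
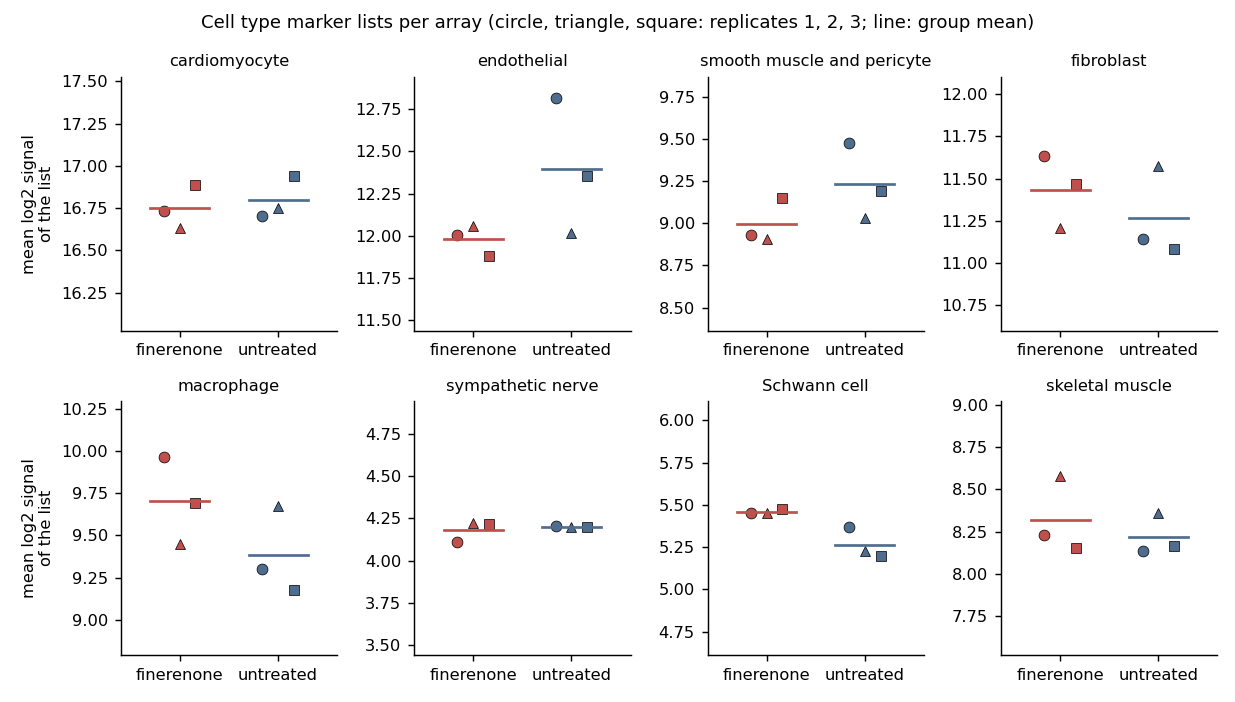
Mean log2 signal of 8 cell type marker lists on each array, with finerenone (red) left of untreated (blue); all panels span the same number of log2 units. The endothelial and the smooth muscle and pericyte means are lower on average in treated hearts with arrays that overlap, and the Schwann cell means do not overlap.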

How the data were processed

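Values were log2 signals per probe set from 6 arrays, made by the authors with RMA, with Affymetrix Expression Console and Transcriptome Analysis Console also named, per the submitters' processing notes. Program versions and the annotation build are not stated in the labels used here. Of 72688 probe sets deposited, 65956 measure transcript clusters and 6732 are controls, with values from 1.94 to 19.93. The 5222 negative control sets had medians from 5.04 to 5.33 and 95th percentiles from 8.35 to 8.73. Arrays correlated between 0.989 and 0.994 over clusters.

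Gene names come from the platform annotation, brought up to date through Entrez identifiers and the RefSeq genes of GRCm38.p6. Among the clusters 30604 had 1 symbol, 2146 several and 33206 none. Where a gene had several clusters (355 genes), that of highest mean signal was kept. Groups came from the sample titles. Differences are finerenone minus untreated, from limma 3.58.1 in R 4.3.3 (lmFit, eBayes, two-sided, no covariate), adjusted over all 30142 genes with a threshold of 0.05. A check of the fit on simulated data used planted differences larger than those of the 8 measured genes, so it does not bear on differences of this size. Tables and plots used Python 3.11.15, pandas 2.3.3 and matplotlib 3.10.9.

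The genes of the set and the pathway and marker lists were chosen with earlier results of these data known. The 8 measured genes and, of each pathway list, the 2 genes with the smallest unadjusted p were named, with the 3 closest profiles for each of Grk5, Rgs2 and Akap12 (the rule's other gene, Adrb1, was not measured), leaving out predicted genes, olfactory receptors and microRNA or small nucleolar RNA symbols. Promoter windows are the 250 bases before RefSeq's listed start. Alternatives were quantile normalization, median centring, cyclic loess, filters on dim genes, a trended robust prior, array weights, averaging a gene's clusters, a replicate block, each array left out, and all transcript clusters.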

Additional observations from a re-analysis of the deposited data

How the results depend on the processing

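Under the 16 alternatives run, 0 genes passed the adjusted threshold, and 0 pathway genes did wherever they were counted. The smallest limma adjusted p ran from 0.0725 without finerenone replicate 1 to 0.87 without finerenone replicate 2. With an unadjusted p below 0.05 there were 1691 to 2789 of 30142 genes where all named genes were tested, 1305 of 11356 with a mean signal of at least 6, 1484 of 14003 at or above the negative controls, and 4138 of the 65956 transcript clusters. The median difference of the measured genes was -0.21 and, leaving out 1 array at a time, ran from -0.29 to -0.15, and from -0.25 to -0.21 otherwise. The count of genes lower with groups apart was 4, and 3 after median centring, where Adcy5 overlapped. With single arrays left out it was 4 to 5 (the added gene being Grk6, without untreated replicate 1). That count could not fall, since groups that are apart stay apart when an array is removed. Gnas was at 0.01 after cyclic loess and close to 0 after quantile normalization, with its sign not settled. Signs turned for the dim genes Adra2c (-0.01 after cyclic loess and after quantile normalization, and from -0.11 to 0.15 over the arrays left out), Adra1b (from -0.02 to 0.12) and Grk4 (from -0.10 to 0.03). The replicate numbers are shared between the groups, but same-numbered arrays did not deviate together (correlations -0.154, 0.059 and 0.058). With the number as a replicate block 0 genes passed, the median difference was -0.21 and 2319 genes had an unadjusted p below 0.05. The arrays, 3 a group, and signals near or below the median negative control (Grk6, Adra1b, Adra2c, Grk4, Adcy3, Adcy8, Dbh and others) limit the precision. Akap12, Adcy5, Gnas and Arrb1 were above that median but below the 95th percentile of the negative controls.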
